A study of Danio rerio with 12 samples.

Results

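The genes described here are the interferon response genes, the Jak kinases, the Stat factors and the Socs proteins of the zebrafish testis, in tissue kept with or without Fsh. They were taken by symbol: every Ensembl gene ID whose name begins with ifi, irf or isg, with stat or jak followed by a digit, or with socs, together with RSAD2, mxa, mxb and mxc. This gave 77 of 33737 gene IDs, of which 69 had enough reads to be tested. The data are RNA sequencing counts from 12 libraries of testis tissue of adult wild-type zebrafish, all incubated for 48 h with trilostane, which inhibits steroid hormone synthesis. In 6 libraries the tissue also received Fsh, the follicle-stimulating hormone of the pituitary (Trilostane+Fsh, called Fsh libraries), and 6 libraries had trilostane alone (Trilostane, called control libraries). Both groups therefore share the block of steroid synthesis. By the labels the 6 libraries in each group are biological replicates, and no account of how the tissue of single fish was divided was given in the sources used here.

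Interferons are cytokines of antiviral defence. They bind receptors that carry Jak kinases, which phosphorylate Stat factors; Stat2 acts together with Irf9 after type I interferon. The activated factors enter the nucleus and switch on interferon-induced genes, among them Mx, Ifit, Ifi44, viperin and Isg15. Socs1 is itself switched on by the pathway and shuts it off by binding the Jak kinases. In testis, macrophages and other interstitial cells are known sources and targets of interferon, and mammalian Sertoli and Leydig cells can also respond to it.

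The libraries held 4695095 to 11497588 counts, and a two-sided exact permutation test of these totals gave p = 0.433. All 18 testis marker gene IDs, for Sertoli, Leydig and germ cells, had counts in every library, with summed levels of 3593 to 5192 CPM (counts scaled to a common library total) in Fsh libraries and 3825 to 5168 CPM in control libraries. Of these gsdf, inha and insl3 rose (median of the list 0.67). By edgeR's unadjusted p under 0.05, 10 of the 18 were higher and 1 lower, beside 8.80% and 8.59% of all genes. DESeq2 called 6 higher and 1 lower, beside 2.74% and 2.77% of all genes. limma-voom called 3 higher and 0 lower, beside 1.03% and 0.844%. None of 7 tested vessel and red blood cell genes passed (median 0.08), where edgeR gave 0 genes with an unadjusted p under 0.05 and DESeq2 and limma-voom made 0 calls. Levels below are CPM scaled by the TMM method. Over all genes tested, 315 of 19317 passed (1.63%; adjusted p under 0.05 in edgeR's quasi-likelihood test); 0.865% of all tested rose and 0.766% fell. Fsh library 5 stood apart from the other Fsh libraries by its leukocyte genes: ptprc, the pan-leukocyte phosphatase CD45, had 98.0 CPM there and 14.2 to 27.7 CPM in the other 5.

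With Fsh, 3 of the 69 tested members fell and none rose. Those that fell were ifi44a1 and ifi44f3, of the interferon-induced Ifi44 family, and socs1b, a copy of the Jak inhibitor Socs1. That is 4.35% of the members tested, beside 0.766% of all genes tested that fell. At an unadjusted p under 0.05, 32 members were lower (46.4%) and 0 were higher, beside 8.59% and 8.80% of all genes. DESeq2 called 17 members lower and 0 higher, beside 2.77% of all genes lower and 2.74% higher. limma-voom called 6 members lower and 0 higher, beside 0.844% of all genes lower and 1.03% higher. The same shares of all genes are the background for the counts of families and lists below. The log2 fold change was below 0 in 52 of the 69, with a median of −0.48, against 0.0017 over all genes tested. The groups did not overlap in 5 members, all lower with Fsh (7.25%, beside 0.818% of all genes lower, 1.11% higher and 1.93% in either direction), and these were the 3 that fell and also SOCS1 and ifi44a6. The 8 members without a test, ifi30b, ifi44b, ifi44e, ifi44f5, ifit15, irf1a, socs4 and SOCS7, had between 0 and 115 reads summed over a group.

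**Figure D1:**
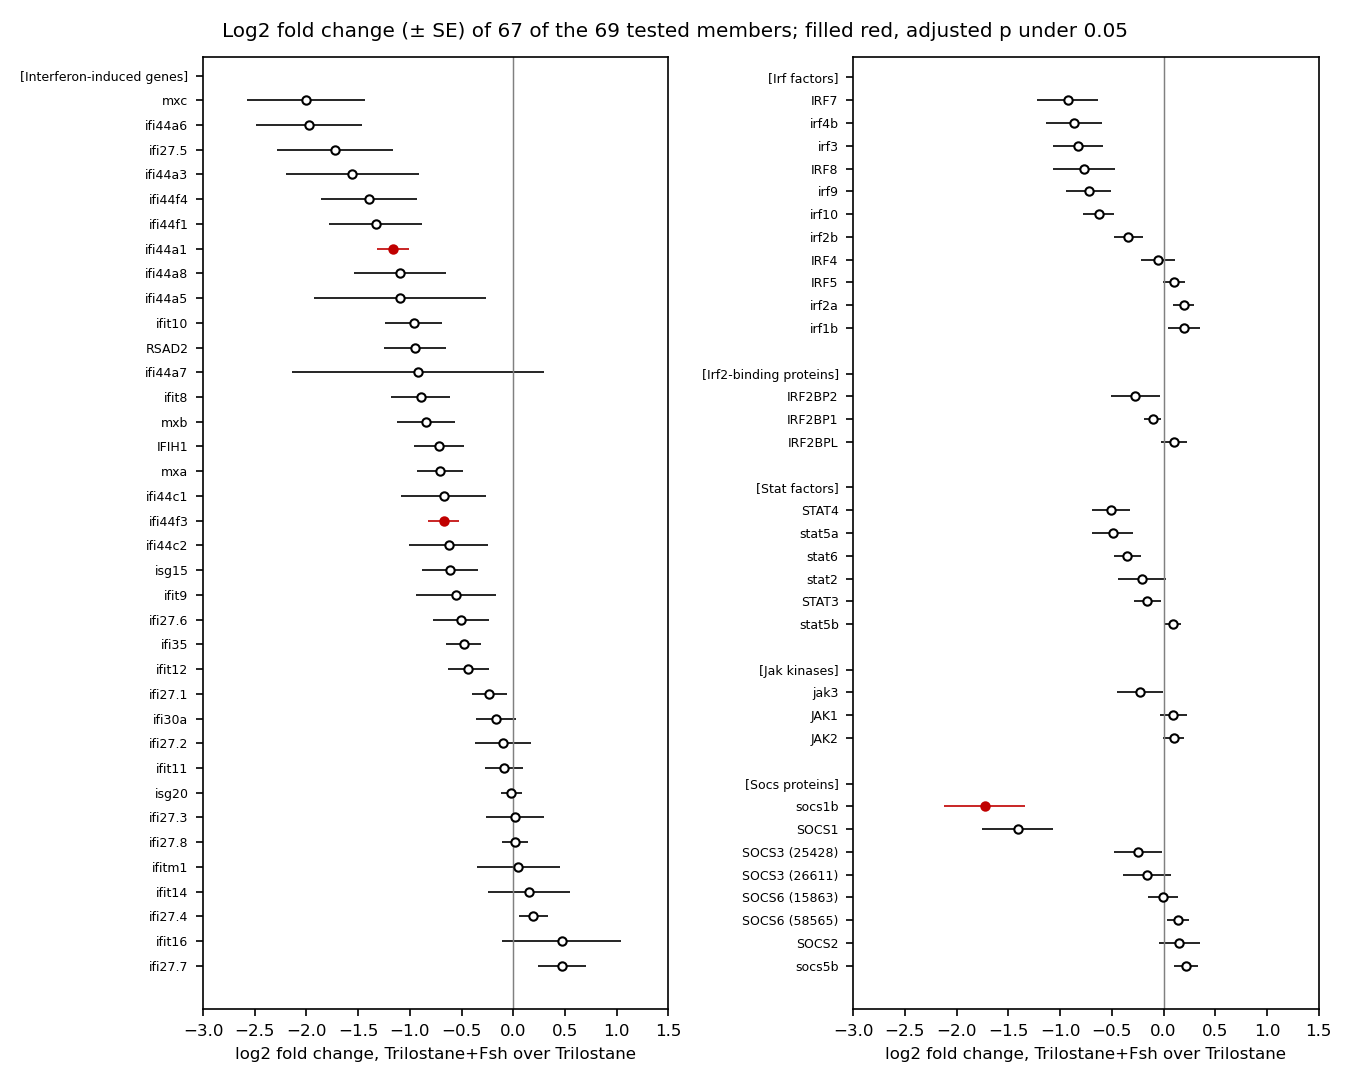
Log2 fold change of 67 of the 69 tested members, Trilostane+Fsh over Trilostane, with its standard error (n = 6 per group), arranged by role; filled red points passed the test. The interferon-induced genes, Irf factors and Stat factors lie mostly left of 0, with the largest negative values for mxc (−2.01) and ifi44a6 (−1.98), while JAK1 and JAK2 lie at 0.09 and 0.10.

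The Socs genes, inhibitors of the pathway, divided into the Socs1 copies and the rest. The gene socs1b (ENSDARG00000089873) had 8.85 CPM at the lowest, 21.3 at the median and 57.3 at the highest of the Fsh libraries, against 74.5, 84.2 and 115 CPM in control libraries. All 6 Fsh libraries lay below every control library, and Fsh library 1 was the nearest to them. It fell 3.32-fold (−1.73 ± 0.39 on the log2 scale, SE, with 6 libraries in each group, adjusted p = 0.0441; later values are in this form). The other copy, SOCS1 (ENSDARG00000038095), had 17.4, 29.9 and 83.0 CPM at the lowest, median and highest in Fsh libraries, against 88.3, 102 and 145 CPM in control libraries. These groups did not overlap either, with Fsh libraries 1 and 5 the highest of their group. Its fold change of −1.41 ± 0.34 missed the threshold (adjusted p = 0.0553); it passed in DESeq2 (adjusted p = 0.00191) and limma-voom (adjusted p = 0.0282).

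The call of socs1b was lost without any 1 of 9 libraries (Fsh 2, 3, 4 or 6, or control 1 to 5), at adjusted p values up to 0.104. A robust fit lost it too (adjusted p = 0.0543). SOCS1 also passed without Fsh library 1, Fsh library 5 or control library 6 (adjusted p = 0.00892, 0.0355 and 0.0481). It did not pass in 14 of 21 alternative settings.

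None of the other 6 Socs genes tested passed, where edgeR gave 0 genes with an unadjusted p under 0.05 and DESeq2 and limma-voom made 0 calls. Both SOCS3 copies, inhibitors of interleukin 6 type receptors, overlapped between the groups. SOCS3 (ENSDARG00000025428) averaged 149 ± 64.3 CPM in Fsh libraries and 176 ± 39.5 CPM in control libraries (SD, n = 6 each; −0.25 ± 0.23, adjusted p = 0.626), and Fsh library 5 had the highest value, 275 CPM. SOCS3 (ENSDARG00000026611) averaged 81.7 ± 26.9 CPM in Fsh libraries and 91.0 ± 30.9 CPM in control libraries (−0.16 ± 0.23, adjusted p = 0.776). SOCS2, socs5b and both SOCS6 copies had log2 fold changes from −0.0067 to 0.22. SOCS2 is a feedback inhibitor of growth hormone signalling.

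**Figure D2:**
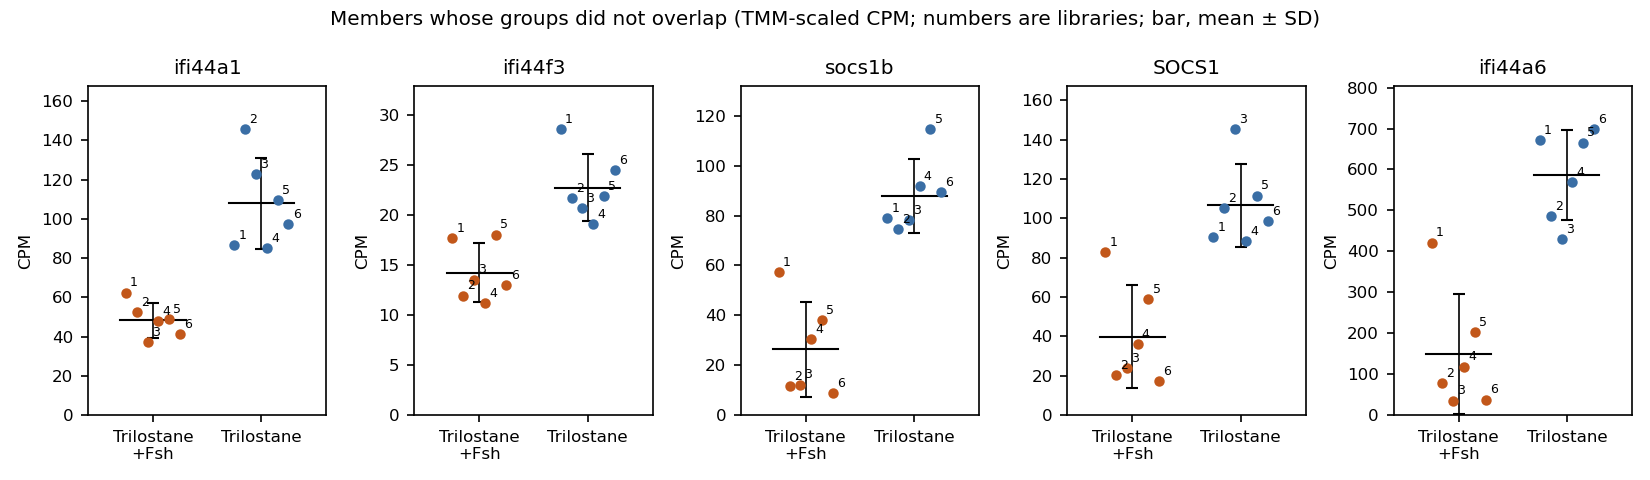
TMM-scaled CPM of the 5 members whose groups did not overlap, in each of the 6 Trilostane+Fsh and 6 Trilostane libraries (numbered points), with the mean and SD. Fsh library 1 is the highest Fsh library in 4 of the panels and Fsh library 5 in that of ifi44f3; as a ratio the narrowest gap is in ifi44a6, where the highest Fsh library has 421 CPM and the lowest control library 430 CPM.

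The Ifi44 genes, interferon-induced proteins of little-known function that form an expanded family in zebrafish, were all on the lower side with Fsh: 11 of 14 were tested, all 11 log2 fold changes were negative (median −1.10), here and in each of 21 alternative settings, and 2 passed. The gene ifi44a1 (ENSDARG00000029720) had 37.1 CPM at the lowest, 48.4 at the median and 62.4 at the highest in Fsh libraries, against 85.3, 103 and 146 CPM in control libraries. Its groups were clearly apart, and it fell 2.23-fold (−1.16 ± 0.16, adjusted p = 0.00341). It passed in each of 21 alternative settings, at adjusted p values up to 0.0188. The gene ifi44f3 (ENSDARG00000094984) had 11.2, 13.3 and 18.1 CPM in Fsh libraries, against 19.1, 21.8 and 28.6 CPM in control libraries. It fell 1.59-fold (−0.67 ± 0.15, adjusted p = 0.0418), which no longer held on omission of any 1 of 9 libraries (Fsh 2, 3, 4 or 6, or control 1 to 5), at adjusted p values up to 0.0980, and with library size as the only scaling or no filter on low counts (adjusted p = 0.0541 and 0.0554).

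The genes ifi44a6 and ifi44a8 varied more among the Fsh libraries than ifi44a1 and ifi44f3 did, and ifi44a6 also differed more between the groups. The gene ifi44a6 (ENSDARG00000095673) had 35.3 CPM at the lowest, 98.6 at the median and 421 at the highest of the Fsh libraries, against 430, 617 and 699 CPM in control libraries. The Fsh libraries thus spread 11.9-fold and the control libraries 1.63-fold. Its fold change of −1.98 ± 0.52 missed the threshold (adjusted p = 0.0708), but it passed in DESeq2 (adjusted p = 0.0133), in limma-voom (adjusted p = 0.0266) and without Fsh library 1 (−2.63, adjusted p = 0.00757). In 17 of 21 alternative settings ifi44a6 did not pass. The gene ifi44a8 had 61.3, 286 and 806 CPM in Fsh libraries, against 640, 692 and 816 CPM in control libraries (−1.10 ± 0.44, adjusted p = 0.221). Fsh library 1 lay within the control range, and without it the gene passed (−1.59, adjusted p = 0.0478). In the other 20 of 21 alternative settings ifi44a8 did not pass (adjusted p up to 0.371). In the GRCz12tu assembly ifi44a1, ifi44a3, ifi44a5, ifi44a6, ifi44a7 and ifi44a8 stand in 1 run of neighbouring genes and ifi44f1, ifi44f3, ifi44f4 and ifi44f5 in another. No rule for reads shared by these copies was given in the sources used here, so values of single copies are uncertain.

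The Mx genes encode dynamin-like antiviral GTPases. mxc (ENSDARG00000024789) had 24.9 CPM at the lowest, 88.4 at the median and 443 at the highest of the Fsh libraries, against 404, 487 and 977 CPM in control libraries. The value of 443 CPM was that of Fsh library 1 and the only one of the 6 inside the control range. Its log2 fold change was −2.01 ± 0.57 and missed the threshold (adjusted p = 0.0926), and on omission of Fsh library 1 it was −2.85 and passed (adjusted p = 0.00595), as mxc did in limma-voom (adjusted p = 0.0301). In the other 19 of 21 alternative settings mxc did not pass. mxa averaged 137 ± 54.2 CPM in Fsh libraries and 225 ± 42.2 CPM in control libraries (−0.71 ± 0.22, adjusted p = 0.120; 0.0375 in DESeq2), and mxb did not pass either (−0.85 ± 0.28, adjusted p = 0.139).

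The Ifit genes, whose mammalian relatives bind viral RNA, were mixed. ifit10 (ENSDARG00000007467) had 20.1, 30.1 and 57.7 CPM at the lowest, median and highest in Fsh libraries, against 43.5, 71.6 and 103 CPM in control libraries (−0.96 ± 0.28, adjusted p = 0.0948). The groups overlapped, since Fsh libraries 1 and 5 lay above the lowest control library, and without Fsh library 5 the gene passed (−1.15, adjusted p = 0.0374). In 18 of 21 alternative settings ifit10 did not pass. Of the 7 tested, 5 were below 0 and 2 above, and none passed; 3 were lower and 0 higher by edgeR's unadjusted p under 0.05, with 2 calls in DESeq2 and 0 in limma-voom.

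None of the other interferon-induced genes described next passed in edgeR, and DESeq2 called RSAD2 (adjusted p = 0.0328) and ifi27.5 (adjusted p = 0.0422). RSAD2, viperin, which makes an antiviral nucleotide, averaged 59.9 ± 34.7 CPM in Fsh libraries and 116 ± 31.4 CPM in control libraries (−0.95 ± 0.30, adjusted p = 0.122). IFIH1, the cytoplasmic double-stranded RNA sensor MDA5, averaged 44.4 ± 16.9 CPM in Fsh libraries and 73.1 ± 19.0 CPM in control libraries (−0.72 ± 0.24, adjusted p = 0.143). The ubiquitin-like modifier isg15 averaged 148 ± 41.1 CPM in Fsh libraries and 227 ± 81.8 CPM in control libraries (−0.61 ± 0.27, adjusted p = 0.259). The exonuclease gene isg20 averaged close to the same level in both groups (−0.02 ± 0.10, adjusted p = 0.943). The lysosomal thiol reductase gene ifi30a had a log2 fold change of −0.17 ± 0.20 and ifitm1, of a family that blocks the entry of viruses, 0.05 ± 0.40. All 8 genes of the ifi27 family were tested, 4 on each side of 0 (median −0.04), and none passed; 1 was lower and 0 higher by edgeR's unadjusted p under 0.05, with 1 call in DESeq2 and 0 in limma-voom. In this family ifi27.5 was the lowest (−1.72 ± 0.56, adjusted p = 0.133) and ifi27.7 the highest (0.47 ± 0.24, adjusted p = 0.324). Control libraries 5 and 6 held 45 and 107 of the 216 control reads of ifi27.5. The gene had 1.709 to 2.275 CPM in control libraries 1 to 4, inside its range of 0.5017 to 2.328 CPM in Fsh libraries.

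**Figure D3:**
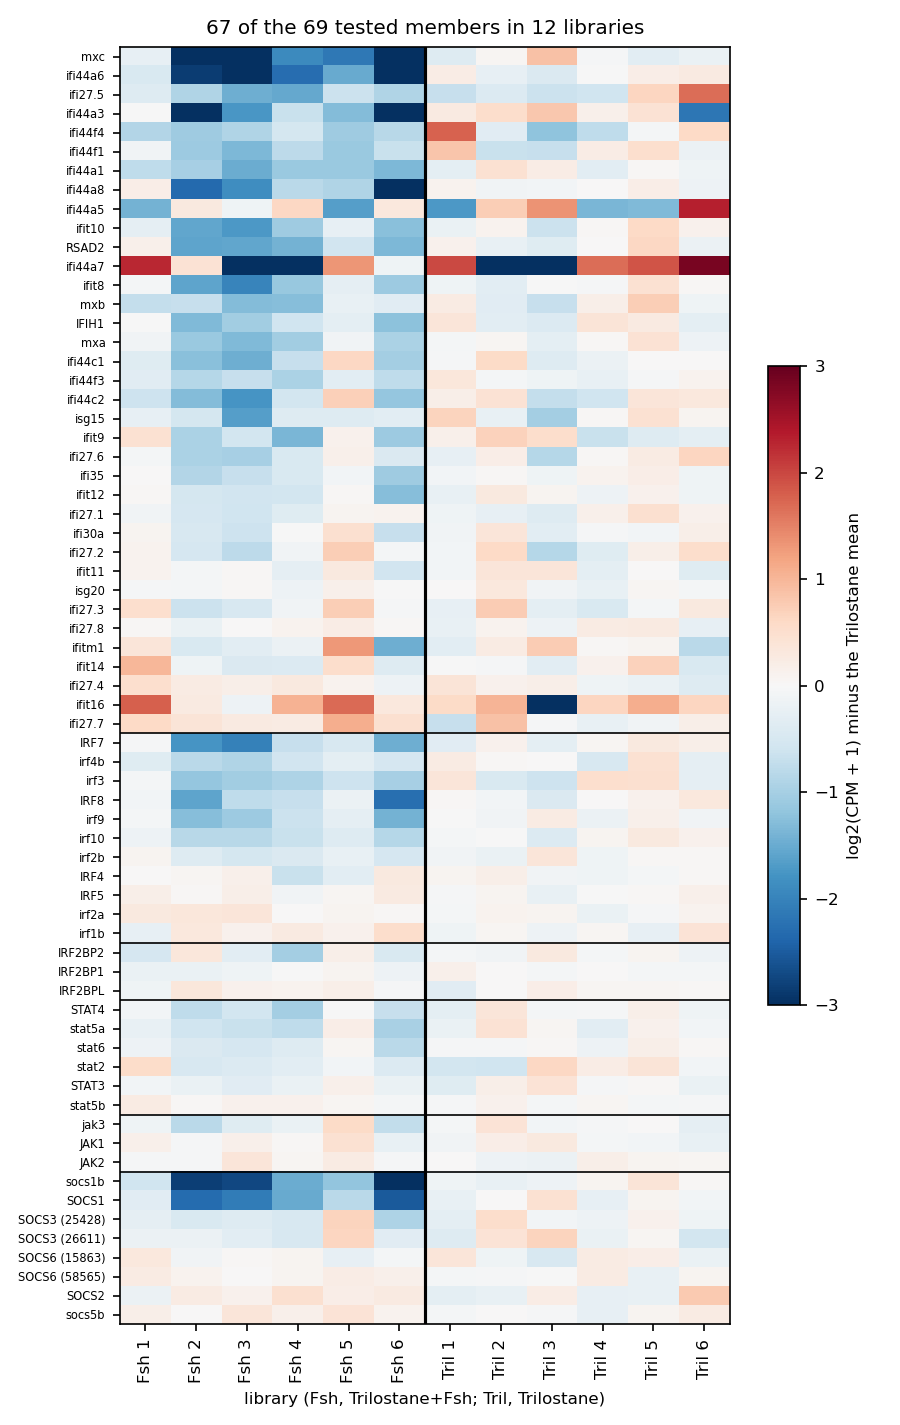
The same 67 tested members (rows, by role) in each library (columns), as log2(CPM + 1) minus the mean of the 6 Trilostane libraries. The Fsh columns are mostly blue for the interferon-induced genes and Irf factors, most so in Fsh libraries 2, 3 and 6, while Fsh library 1 is close to the control libraries for many of them.

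Irf factors bind the promoters of interferons and of interferon-induced genes. Of 11 tested, 8 log2 fold changes were below 0 (median −0.63) and none passed; 7 were lower and 0 higher by edgeR's unadjusted p under 0.05, while the DESeq2 calls were irf10, irf3, irf9 and IRF7 and limma-voom had none. irf10 (ENSDARG00000027658), a member found in fish and birds but not in mouse, had 28.5 CPM at the lowest, 30.6 at the median and 46.7 at the highest in Fsh libraries, against 38.8, 53.3 and 64.3 CPM in control libraries (−0.63 ± 0.15, adjusted p = 0.0555). Fsh libraries 1 and 5 overlapped the control libraries, and without either the gene passed (adjusted p = 0.0171 and 0.0372), as it did without control library 3 (adjusted p = 0.0409). In 16 of 21 alternative settings irf10 did not pass.

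The 2 factors that induce interferon after sensing of nucleic acid gave like values. irf3 (ENSDARG00000076251) had 64.6, 74.1 and 138 CPM in Fsh libraries, against 94.7, 154 and 205 CPM in control libraries (−0.83 ± 0.24, adjusted p = 0.0956). IRF7 (ENSDARG00000045661) had 112, 224 and 444 CPM in Fsh libraries, against 360, 486 and 559 CPM in control libraries (−0.93 ± 0.30, adjusted p = 0.126). In both, Fsh library 1 was the highest of its group and inside the control range, and both passed without it (adjusted p = 0.0312 for irf3 and 0.0360 for IRF7). Of 21 alternative settings, irf3 did not pass in 18 and IRF7 did not pass in 19. irf9, the partner of Stat2, averaged 61.7 ± 24.6 CPM in Fsh libraries and 102 ± 12.6 CPM in control libraries (−0.72 ± 0.22, adjusted p = 0.108).

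IRF8, which directs macrophage development, averaged 79.2 ± 39.0 CPM in Fsh libraries and 135 ± 22.9 CPM in control libraries (−0.77 ± 0.30, adjusted p = 0.204), and irf4b, a copy of a lymphocyte factor, 1.40 ± 0.39 CPM in Fsh libraries and 2.62 ± 0.85 CPM in control libraries (−0.86 ± 0.27, adjusted p = 0.121). IRF4, IRF5, irf1b and irf2a had log2 fold changes from −0.05 to 0.20, and irf2b had −0.34 ± 0.14. The rule also took in IRF2BP1, IRF2BP2 and IRF2BPL, which are corepressors that bind Irf2 and are not Irf factors; their values lay between −0.27 and 0.10, none with an unadjusted p under 0.05, and DESeq2 and limma-voom called 0.

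Of the 6 Stat factor genes described here, 5 had log2 fold changes below 0 (median −0.28) and none passed; 3 were lower and 0 higher by edgeR's unadjusted p under 0.05, with 0 calls in DESeq2 and in limma-voom. stat2 (ENSDARG00000031647), which acts under type I interferon, overlapped widely: it had 382, 417 and 783 CPM in Fsh libraries, against 352, 564 and 817 CPM in control libraries (−0.21 ± 0.24, adjusted p = 0.692). The approximate 95% interval of its log2 fold change ran from −0.67 to 0.25. STAT4, used by interleukin 12, and stat6, used by interleukins 4 and 13, had −0.51 ± 0.19 and −0.35 ± 0.13 (adjusted p = 0.179 and 0.183). STAT3, used by interleukin 6, had −0.16 ± 0.13 (adjusted p = 0.565). The copies stat5a and stat5b, used by growth hormone and prolactin, had −0.49 ± 0.20 and 0.09 ± 0.08 (adjusted p = 0.222 and 0.585).

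None of the 3 Jak kinases taken by symbol passed, and 0 had an unadjusted p under 0.05 in edgeR or a call in DESeq2 or limma-voom. A further Jak family gene, TYK2, lay outside the symbol rule and is given with the receptor genes below. JAK1 (ENSDARG00000020625), which serves interferon and interleukin 6 type receptors, had 282 CPM at the lowest, 354 at the median and 459 at the highest in Fsh libraries, against 282, 315 and 406 CPM in control libraries (0.09 ± 0.13, adjusted p = 0.757), with an approximate 95% interval from −0.16 to 0.35. JAK2 (ENSDARG00000018882), which serves the interferon gamma, growth hormone and prolactin receptors, averaged 80.4 ± 10.2 CPM in Fsh libraries and 75.2 ± 7.09 CPM in control libraries (0.10 ± 0.10, adjusted p = 0.661), with an interval from −0.099 to 0.30. The lymphocyte kinase gene jak3 averaged 14.3 ± 5.89 CPM in Fsh libraries and 16.7 ± 2.94 CPM in control libraries (−0.23 ± 0.23, adjusted p = 0.651).

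**Figure D4:**
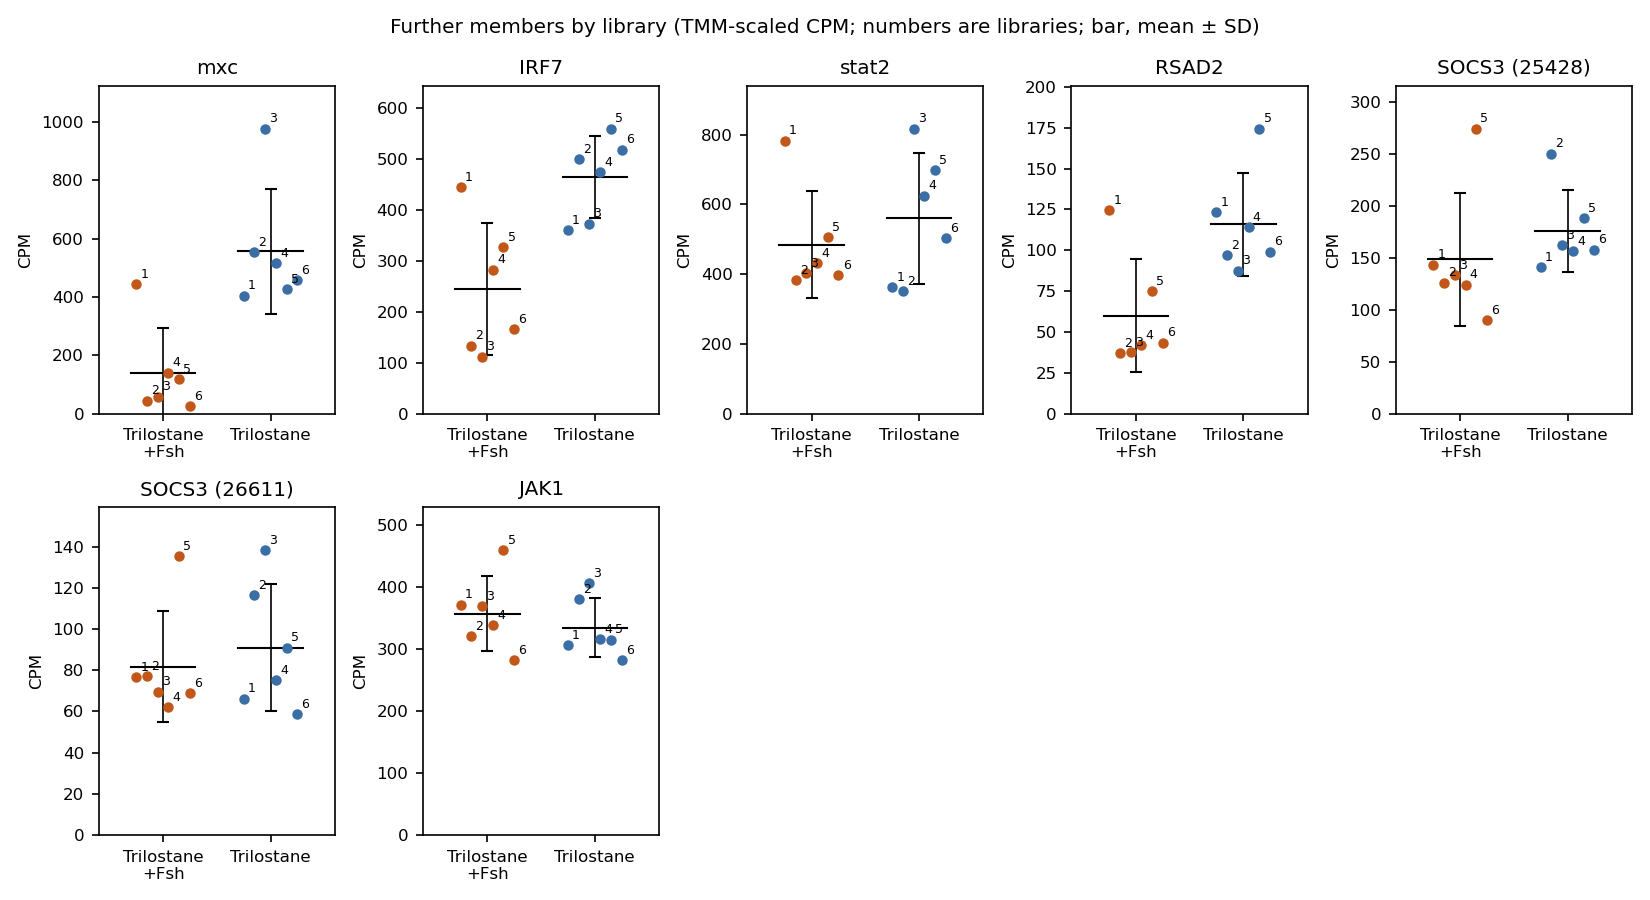
TMM-scaled CPM of mxc, IRF7, stat2, RSAD2, both SOCS3 copies and JAK1 in each of the 6 Trilostane+Fsh and 6 Trilostane libraries (numbered points), with the mean and SD. Fsh library 1 reaches the control range for mxc, IRF7 and RSAD2, and Fsh library 5 is the highest Fsh library for both SOCS3 copies and JAK1.

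The Fsh libraries were not alike. Of the 32 members that were lower at an unadjusted p under 0.05, Fsh library 1 was the highest Fsh library for 23 and Fsh library 5 for 8; over all 69 tested members these counts were 32 and 26. In Fsh library 1, 26 of the 32 were at or above the lowest control library, in Fsh library 5 18, and in Fsh libraries 2, 3, 4 and 6 between 2 and 4. Fsh library 1 was at or above the control mean for 5 of the 32, Fsh library 5 for 3, and each of the other 4 for none. The 32 were chosen as lower in this same comparison, a choice that by itself puts most of their Fsh values below the control mean. The summed level of the 41 interferon-induced members was 3440 CPM in Fsh library 1, 2449 in Fsh library 5, 1842 in Fsh library 4 and 1130 to 1263 in Fsh libraries 2, 3 and 6, against 3472 to 4091 CPM over the control libraries. This sum was weighted towards its most abundant genes, since ifi44a8, ifi44a6 and mxc averaged 709, 587 and 556 CPM in control libraries. In Fsh library 1 these genes had 806, 421 and 443 CPM, and in Fsh library 5 380, 202 and 119 CPM. Among the 68 members with counts in every library, the ratio of highest to lowest library had a median of 2.30 in the Fsh group and 1.71 in the control group, and it was larger in the Fsh group for 43. Neither these ratios nor the counts of highest libraries were computed over all genes tested, so they may not be particular to the members. Without Fsh library 1, 15 members fell, beside 1.30% of all genes, and without Fsh library 5, 11 fell, beside 2.26% of all genes.

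Leukocyte markers were set beside these genes. Of 45 leukocyte marker gene IDs, none was at 0 in every library and 28 were tested; 24 of the 28 were below 0 (median −0.45), with 8 lower and 0 higher at an unadjusted p under 0.05. One of them, cd4-1, a T helper cell co-receptor, fell (−0.97 ± 0.21, adjusted p = 0.0371), which no longer held on omission of any 1 of 7 libraries (Fsh 2, 3, 4 or 6, or control 2, 4 or 5; adjusted p up to 0.0920). In 11 of 21 alternative settings cd4-1 did not pass. DESeq2 called 3 of these markers lower and limma-voom 1. Their summed level, leaving out the broadly expressed MMP9, was 1139 CPM in Fsh library 5, 694 in Fsh library 1 and 468 to 536 in Fsh libraries 2, 3, 4 and 6, against 698 to 1275 CPM in control libraries. The sum includes RAG2, at 80.7 to 150 CPM in Fsh libraries and 85.0 to 173 CPM in control libraries. Unlike ptprc, RAG2 was lowest in Fsh library 5 among the Fsh libraries, so the sum is an imperfect measure of leukocytes. Fsh library 5 was thus the highest Fsh library in this sum, followed by Fsh library 1, and the reverse held for the interferon-induced members. The other Fsh libraries ranked 4, 2, 6 and 3 from high to low in both sums. This match depended on the measure. The interferon-induced sum was weighted towards ifi44a8, ifi44a6 and mxc, and the order of the libraries without these genes was not tested. With MMP9 in the leukocyte sum their order was 2, 4, 3 and 6. By the mean log2 CPM of the tested markers it was 2, 6, 4 and 3. A copy of the macrophage gene MPEG1 (ENSDARG00000043093) averaged 43.9 ± 25.2 CPM in Fsh libraries and 113 ± 45.8 CPM in control libraries (−1.36 ± 0.36, adjusted p = 0.0762). The copy ENSDARG00000055290 averaged 3.4 ± 3.2 CPM in Fsh libraries and 4.5 ± 1.7 CPM in control libraries (−0.42 ± 0.45, adjusted p = 0.677). The copy ENSDARG00000078569 was not tested. In bulk tissue, fewer cells of a type and less RNA per cell cannot be told apart. A further fit had as covariate the mean log2 CPM of the 28 tested leukocyte markers, with MMP9 and RAG2 included. With this covariate, ifi44a1 was −0.94 (adjusted p = 0.0188), socs1b −1.54 (adjusted p = 0.0988) and ifi44f3 −0.58 (adjusted p = 0.0969). In that fit the median of the members was −0.21, 21 were lower at an unadjusted p under 0.05 (beside 8.25% of all genes), and ifi27.7 rose (0.87, adjusted p = 0.0378).

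**Figure D5:**
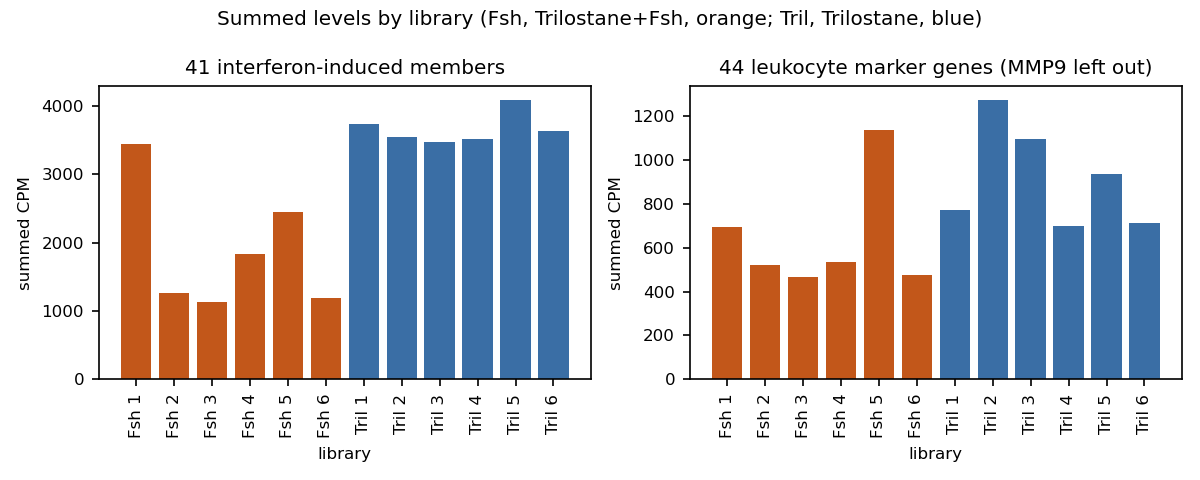
Summed CPM of the 41 interferon-induced members (left) and of 44 leukocyte marker gene IDs without MMP9 (right) in each library, Trilostane+Fsh in orange and Trilostane in blue. On the left Fsh library 1 (3440 CPM) is just under the lowest control library (3472 CPM), while on the right the highest Fsh library is number 5 (1139 CPM).

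Upstream of the members, ifng1 (ENSDARG00000024211), interferon gamma, had 0.302 CPM at the lowest and 4.74 at the highest of the Fsh libraries, against 6.22 and 12.0 CPM in control libraries. The highest Fsh library was again number 1, and Fsh libraries 2, 3 and 6 held only 6, 3 and 3 reads. The gene fell 4.71-fold (−2.24 ± 0.51, adjusted p = 0.0446), which no longer held on omission of any 1 of 9 libraries (Fsh 2, 3, 4 or 6, or control 1 to 5), at adjusted p values up to 0.108. Nor did ifng1 pass with the leukocyte covariate or without the filter on low counts (adjusted p up to 0.115). It was the edgeR call among 10 interferon ligand and receptor genes tested, of which DESeq2 called 3 lower and limma-voom 2. Of the 10, 6 were lower and 0 higher at an unadjusted p under 0.05 in edgeR (median −0.34). Of these crfb1, a chain of the type I interferon receptor, averaged 24.6 ± 6.59 CPM in Fsh libraries and 37.9 ± 2.75 CPM in control libraries (−0.62 ± 0.15, adjusted p = 0.0577), and it passed in DESeq2 (adjusted p = 0.00709) and limma-voom (adjusted p = 0.0452). TYK2, a Jak family kinase gene outside the symbol rule, averaged 155 ± 24.9 CPM in Fsh libraries and 223 ± 50.6 CPM in control libraries. Its groups did not overlap, and it missed the threshold (−0.53 ± 0.15, unadjusted p = 0.00335 in edgeR, adjusted p = 0.0912). The type I interferon gene ifnphi1 averaged 3.82 ± 1.32 CPM in Fsh libraries and 5.79 ± 1.31 CPM in control libraries (−0.60 ± 0.24, adjusted p = 0.223).

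Other cytokines and receptors that signal through Jak kinases held 1 edgeR call. il7, a survival factor of lymphocytes, averaged 9.13 ± 2.66 CPM in Fsh libraries and 17.7 ± 4.20 CPM in control libraries and fell (−0.95 ± 0.21, adjusted p = 0.0435), which no longer held on omission of any 1 of 8 libraries (Fsh 2, 3, 4 or 6, or control 1, 3, 4 or 5; adjusted p up to 0.108). With the leukocyte covariate or without the filter on low counts il7 did not pass either. It was the 1 call of edgeR and of limma-voom among 12 cytokine genes tested, where DESeq2 called 2. Of the 12, 6 were lower and 0 higher at an unadjusted p under 0.05 in edgeR (median −0.62). After il7, il11b had the next smallest p (−1.42 ± 0.38, adjusted p = 0.0762) and passed in DESeq2 (adjusted p = 0.0126). The groups did not overlap for il22 (−0.70 ± 0.22, adjusted p = 0.121), which had at most 2.275 CPM in any library. None of 22 receptor genes passed, with 3 lower and 1 higher at an unadjusted p under 0.05 in edgeR. DESeq2 and limma-voom called 0. The higher one was ghrb, a growth hormone receptor, with 21.8 ± 7.79 CPM in Fsh libraries and 12.4 ± 6.84 CPM in control libraries (0.81 ± 0.35, adjusted p = 0.245).

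Among 34 further interferon-induced genes tested, xaf1, a cell death factor, averaged 101 ± 14.1 CPM in Fsh libraries and 160 ± 20.6 CPM in control libraries without overlap and fell (−0.67 ± 0.11, adjusted p = 0.0125). It passed in each of 21 alternative settings. In this list 21 were lower and 0 higher at an unadjusted p under 0.05, beside 8.59% and 8.80% of all genes. The median log2 fold change was −0.58. DESeq2 called 13 lower and limma-voom 2, beside 2.77% and 0.844% of all genes. The ADP-ribosyltransferase gene PARP12 had the next smallest p (−0.84 ± 0.20, adjusted p = 0.0509). Regulators of Jak-Stat signalling held no call among 22 tested, with 2 lower and 0 higher at an unadjusted p under 0.05 in edgeR, 1 call in DESeq2 and 0 in limma-voom. Of these usp18, which removes Isg15 and damps the type I receptor, had a log2 fold change below 0 (−1.06 ± 0.32, adjusted p = 0.114). STAM2, an adaptor of endosomal sorting, had −0.23 ± 0.10 (adjusted p = 0.257).

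Of 12 nucleic acid sensing genes none passed, with 4 lower and 0 higher at an unadjusted p under 0.05 in edgeR, 1 call in DESeq2 and 0 in limma-voom. The DNA sensor gene CGAS had 4.86 ± 2.63 CPM in Fsh libraries and 10.6 ± 4.35 CPM in control libraries (−1.10 ± 0.35, adjusted p = 0.124), and traf3, an adaptor towards Irf3, −0.37 ± 0.12 (adjusted p = 0.133). Of 30 antigen presentation genes none passed, with 12 lower and 1 higher at an unadjusted p under 0.05 in edgeR, 1 call in DESeq2 and 0 in limma-voom. The class I gene mhc1uba had 92.4 to 249 CPM in Fsh libraries and 204 to 1827 CPM in control libraries (−2.33 ± 0.58, adjusted p = 0.0623). Control libraries 2 and 3 had 1827 and 1586 CPM, and control libraries 1, 4, 5 and 6 had 204 to 329 CPM. Over 21 alternative settings the log2 fold change of mhc1uba ran from −2.55 to −1.08. The cathepsin S gene ctss2.1 had −0.79 ± 0.26 (adjusted p = 0.139). Over the 142 tested genes of these 7 lists together 3 fell (2.11%, beside 0.766% of all genes) and none rose. By edgeR's unadjusted p under 0.05, 54 were lower (38.0%) and 2 higher, beside 8.59% and 8.80% of all genes. DESeq2 called 21 lower and limma-voom 5, beside 2.77% and 0.844% of all genes, with 0 higher in either. In all, 120 of the 142 log2 fold changes were below 0 (median −0.35).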

How the data were processed

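Gene expression was measured in 12 testis libraries. RNA from a miRNeasy kit went into Illumina TruSeq libraries, per the labels' protocols. CASAVA 1.8, STAR 2.3 and HTSeq and the build Zv9 are named in the submitters' processing notes (no annotation release, strand setting or rule for multiply matching reads was given in the sources used here). What the authors deposited are raw counts, whole numbers per Ensembl gene ID. Symbols were found for 21939 of 33737 IDs. Positions in Zv9 were not used, and gene order is that of RefSeq's GRCz12tu table, where 66 members matched by symbol and members up to 2 protein-coding genes apart were taken as 1 run. No sequences were used here.

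Groups were compared in edgeR 4.0.16 (R 4.3.3) by its quasi-likelihood F test, with TMM factors (0.891 to 1.05), on the 19317 genes that filterByExpr kept, with Benjamini-Hochberg adjustment over all of them and calls at an adjusted p under 0.05. The SE is the size of the log2 fold change divided by the square root of F. Alternatives were DESeq2 1.42.0, limma-voom (limma 3.58.1), other scalings and filters, a robust fit, the replicate number as a block, a leukocyte covariate and the omission of each library. The steps were tested on simulated data.

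The limit set by 0 reads was taken as 3 counts (0.259 to 0.641 CPM by library); such limits cover counting error only. Replicate libraries differed by more than sampling noise (chi-square per degree of freedom 5.43 to 43 over 30 pairs), and each was counted as 1 sample.

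The members and lists were chosen with earlier results of these data known. Named genes were the members that passed, those without overlap, the 10 smallest p, the 2 with the highest mean CPM in each role and their copies, and from each list the calls and the 2 smallest p, with ifng1 and ptprc; other genes were named after their values were seen. Symbols follow the table, so capitals mark a human-style name and not a human gene. One item is not reported here by name, and counts over all members include it.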

Additional observations from a re-analysis of the deposited data

Results flagged for a closer look

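A gap test for a single library far from the other 5 of its group was made in 76 groups of values. For independent, normally distributed values chance alone sets apart about 1 in 20. The values here are mostly CPM of related genes, and the leukocyte sum contains ptprc, so that rate need not hold. In 8 groups of values a library was set apart. Fsh library 1 stood high for mxc, at 443 CPM against 24.9 to 140 CPM in the other Fsh libraries, and for stat2, at 783 CPM against 382 to 507 CPM. Fsh library 5 stood high for SOCS3 (ENSDARG00000025428), at 275 CPM against at most 144 CPM, and for SOCS3 (ENSDARG00000026611), at 135 CPM against 62.2 to 77.1 CPM. The same library stood high for ctss2.1, at 52.4 CPM against 20.7 to 28.7 CPM, for ptprc, at 98.0 CPM against 14.2 to 27.7 CPM, and for the summed leukocyte markers with MMP9, at 2720 CPM against 923 to 1310 CPM. In the control group, library 3 stood high for mxc, at 977 CPM against 404 to 555 CPM.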

How the results depend on the processing

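The direction of the single-gene results held in 731 of 735 gene and setting pairs. The exceptions were SOCS3 (ENSDARG00000025428) at 0.11, SOCS3 (ENSDARG00000026611) at 0.24 and ptprc at 0.14 with the leukocyte covariate, and SOCS3 (ENSDARG00000026611) at 0.0051 without control library 3 (range −0.36 to 0.0051 without single libraries). Because ptprc is itself one of the markers averaged in that covariate, its value there is not an independent check. DESeq2 called 1061 genes, with 17 members and 21 partner genes lower. limma-voom called 6 members and 5 partner genes lower. Without the filter on low counts 1 partner gene was lower. With the leukocyte covariate 1 member and 1 partner gene were lower and 1 of each was higher. Leaving out single libraries gave 95 to 758 calls over all genes, 1 to 15 members and 1 to 21 partner genes lower, and 0 higher; the count of members was 15 without Fsh library 1, 11 without Fsh library 5, 4 without control library 6 and 1 without Fsh library 2, 3, 4 or 6 or control library 1, 2, 4 or 5. The labels do not say what a shared replicate number marks. Deviations of libraries of equal number correlated at 0.0217 to 0.264, not all over 0.1, and best with their own number for numbers 4 and 6 only, so they were not taken as pairs; with the replicate number as a block, 13 members and 13 partner genes were lower and 0 and 1 higher. The cause of these changes was not tested. Genes with few reads, such as the members ifi27.5 and irf4b and the partner gene ifng1, are limited by depth.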

Other observations

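A few members and antigen presentation genes had some libraries far from the rest; they were chosen after their values were seen. The gene ifi44a7 had 0 reads in Fsh libraries 3 and 4 and in control libraries 2 and 3, which allows up to 0.336, 0.376, 0.262 and 0.384 CPM, and 15.9 to 132 CPM in the other 8. Its neighbour ifi44a5 had 0.427 to 0.902 CPM in Fsh libraries 1 and 5 and control libraries 1, 4 and 5, and 3.36 to 22.7 CPM in the other 7. The gene ifit16 had 4 reads (0.512 CPM) in control library 3 and 20.4 to 80.5 CPM in the other 11. The class I gene mhc1uba had 1827 and 1586 CPM in control libraries 2 and 3 and 92.4 to 329 CPM in the other 10. The immunoproteasome genes PSMB8, psmb12 and psmb13a had at most 0.214, 0.469 and 0.773 CPM in control libraries 1, 4 and 5, and at least 54.4, 16.2 and 19.8 CPM in the other 9. The untested gene ifi44f5 had 73 of its 115 control reads in control library 1. The cause was not tested.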
